A study of Mus musculus with 13 samples.

Results

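The comparison described here set 3 P195A/- brains against 4 P195A/P195A brains, 7 of the 13 libraries of a series on mouse Adar. The members were chosen by genotype label alone. Whole brains of C57BL/6 mice were snap-frozen, their total RNA was sequenced, and transcripts of each gene and A, C, G and T reads at listed editing sites were counted. Wild-type (n = 3) and P195A/+ (n = 3) brains made up the rest of the series and serve here only to estimate the spread between animals and as reference levels. The wild-type animals were 2 females of 48 days and 1 male of 74 days, all older than the P195A/- animals. The P195A/+ animals were 2 females and 1 male of 43 days. P195A/P195A animals carried the P195A allele of Adar on both chromosomes, were 3 females and 1 male (replicate 2), and were 42 days old (replicates 1 and 2) or 48 days old (replicates 3 and 4). P195A/- animals carried P195A opposite a null allele, were 2 females and 1 male (replicate 3), and were all 42 days old. Their longer genotype label instead has P195A for both alleles followed by AdarKO/+, a notation left without explanation, and how the null allele was made is not stated in the labels. Weaning weight was 7.9, 8.2 and 8.4 g in the P195A/- animals and 6.4, 8.4, 7.3 and 8 g in the P195A/P195A animals. Nothing in the labels says whether animals shared a litter.

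ADAR1, the product of Adar, binds double-stranded RNA and deaminates adenosine to inosine, which sequencing reads as guanosine. Its long, interferon-inducible form carries a domain that binds nucleic acid in the Z conformation, and P195A lies in that domain and corresponds to a variant found in patients. Editing by ADAR1 keeps cellular RNA from being taken for viral RNA by the sensor MDA5, and when it fails, type I interferon genes are switched on. ADAR2, the product of Adarb1, carries out much of the editing that changes codons of neuronal receptors.

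Total estimated counts were 15591470 to 18359307 in the P195A/- libraries and 13539148 to 20688387 in the P195A/P195A libraries. The mitochondrial share was highest in P195A/- replicate 3, at 1.56%, and lay between 0.457 and 0.79% in the other 6 libraries. On the first principal component of these 7 libraries, which held 30% of the variance, P195A/P195A replicates 2 and 3 lay at opposite ends, at -51.1 and 61.8, and the P195A/- libraries lay between -13.7 and 13.1. Defining markers of neurons, astrocytes, oligodendrocytes and microglia were present in all 7 libraries.

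Of 19962 genes tested with edgeR's quasi-likelihood test, 8 (0.0401%) had a Benjamini-Hochberg adjusted p below 0.05. Those higher in P195A/- (4 genes, 0.02%) were Rps3a3, Rps3a2, Gm3608 and Hist1h2al, and those lower (4 genes, 0.02%) were Adar, Capza1, Cdhr1 and S100a5. Before adjustment, 1361 genes (6.82%) had a p under 0.05. The number passing was 5 without P195A/P195A replicate 1, 5 without P195A/P195A replicate 4 and 15 without P195A/P195A replicate 2. DESeq2 called 52 genes (0.261% of those it tested), among them all 8. The median log2 fold change over all genes was 0.004, with 50.8% of the genes above 0.

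Adar itself (chr3:89715022-89753446, plus strand, GRCm38) fell. Its level was 196, 204 and 204 CPM (counts scaled to library size) in the 3 P195A/- brains and 346, 282, 340 and 322 CPM in the 4 P195A/P195A brains. The groups did not overlap, and the P195A/- libraries lay close together. The log2 fold change was -0.68 ± 0.08 (SE), with an edgeR adjusted p of 0.000773, and it passed in each of the 17 alternative fits, in which it ranged from -0.75 to -0.65. Mean Adar was 180 CPM in wild type and 240 CPM in P195A/+. Counts per gene do not separate the long from the short form of ADAR1, nor transcripts of the null allele from those of P195A.

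The other editing enzymes did not pass. Adarb1 was at 308.8, 296.6 and 309.4 CPM in P195A/- and 326.6, 287.9, 276.5 and 324.1 CPM in P195A/P195A, with a log2 fold change of 0.01 ± 0.08 (SE) whose sign turned in 6 of the alternatives. Adarb2, whose product is a brain ADAR without known catalytic activity, had a log2 fold change of -0.24 ± 0.14 (SE) and an edgeR adjusted p of 0.821. Its levels of 41.6 to 54.8 CPM in P195A/- overlapped those of 45.5 to 74.1 CPM in P195A/P195A.

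**Figure D1:**
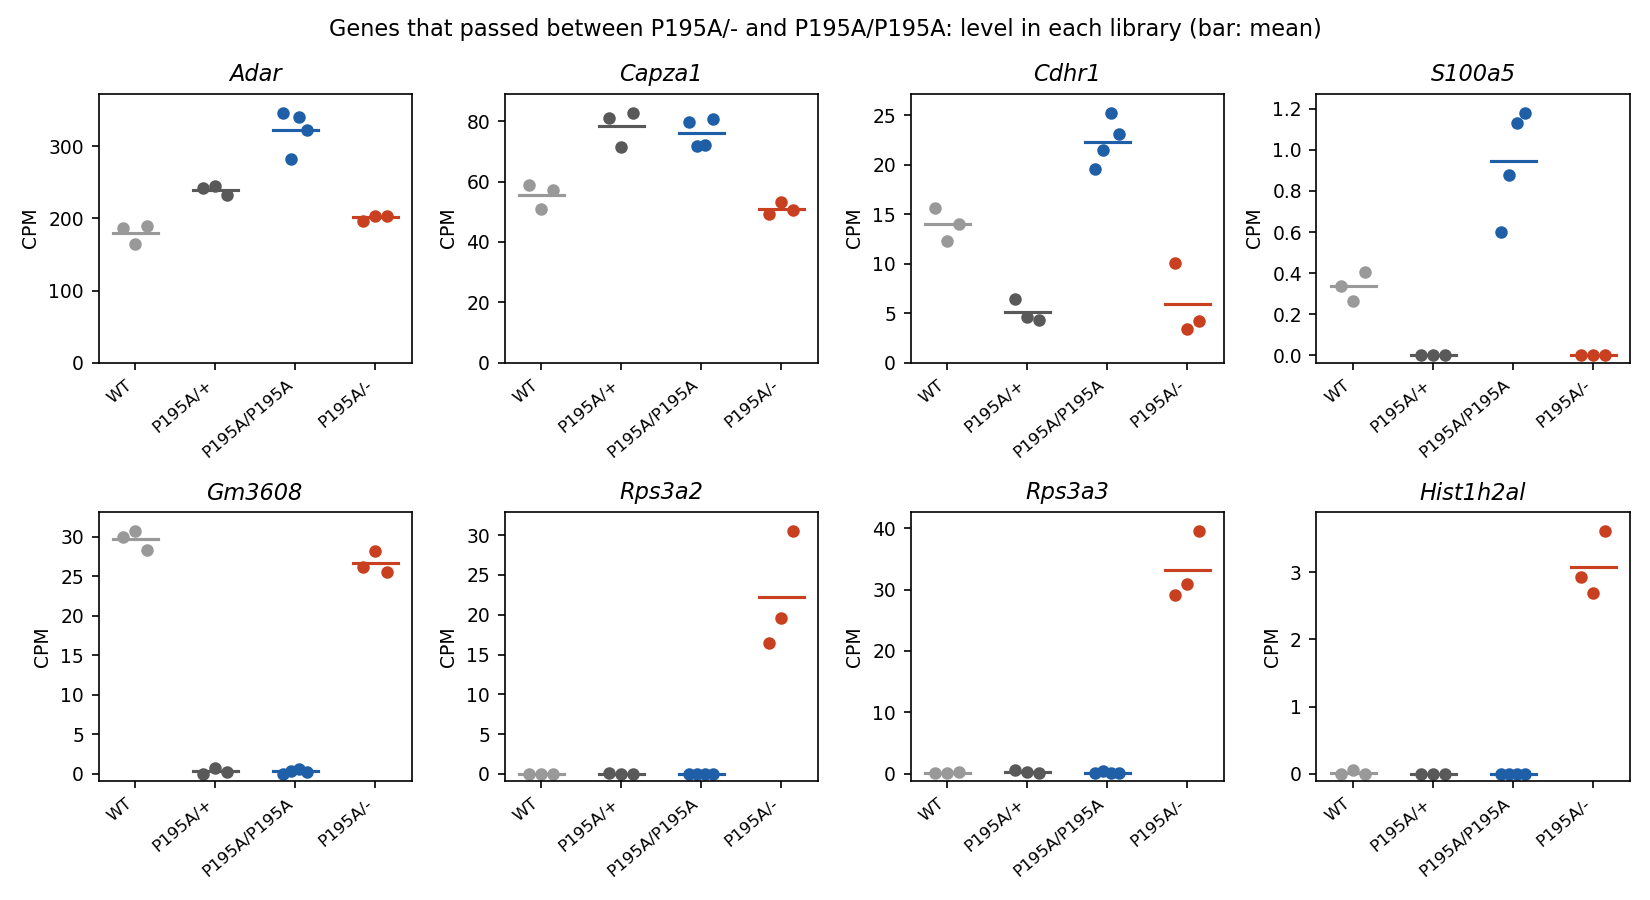
CPM in each library of the 4 genotypes for the 8 genes that passed between P195A/- and P195A/P195A, with points for libraries and bars for means. Adar lies at 196 to 204 CPM in P195A/- and 282 to 346 CPM in P195A/P195A, and Rps3a2 and Hist1h2al are at 0 in all P195A/P195A libraries.

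Genes on the side of Adar that holds Chrnb2 were lower in P195A/- as well. The list of genes next to Adar had 15 tested members including Adar, of which 12 had a negative log2 fold change, with a median of -0.34. There were 8 members that had an unadjusted p under 0.05 and a lower level (3.63% of all genes did), and Adar was the only member to pass after adjustment. Chrnb2, a subunit of the neuronal nicotinic acetylcholine receptor whose gene overlaps the end of Adar on the opposite strand, was at 88.2, 79.6 and 94.4 CPM in P195A/- and 151, 104, 166 and 144 CPM in P195A/P195A. All 3 P195A/- libraries were below all 4 others, with a log2 fold change of -0.69 ± 0.12 (SE) and an edgeR adjusted p of 0.0555. No source used here says whether the authors' counting used strand, so reads of Adar and Chrnb2 may have been shared. Atp8b2, a phospholipid flippase subunit 186 kb from Adar, was at 189, 175 and 155 CPM against 225, 225, 228 and 242 CPM, with a log2 fold change of -0.41 ± 0.08 (SE) and an edgeR adjusted p of 0.0782. DESeq2 called Chrnb2, 4632404H12Rik and Atp8b2.

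Along the chromosome, log2 fold changes were below 0 at each gene between Adar and Tpm3 (a tropomyosin gene) that reached 1 CPM, at Tpm3 itself, and beyond it at Nup210l (-0.49) and Rps27 (-0.26), both at low levels with overlapping groups. The interval from Adar to Tpm3, chosen after the values were seen and therefore not tested, spans 386 kb and holds 10 genes of at least 1 CPM besides Adar. All 10 had a negative log2 fold change, from -0.69 (Chrnb2) to -0.16 (Ube2q1), with a median of -0.36. Kcnn3, the nearest gene on the other side at 39.9 kb, was at 0.14. Of the 94 other genes of at least 1 CPM within 3 Mb, 38 were below 0 and 56 above, with a median of 0.04. Among the P195A/P195A libraries, replicate 2 differed from the rest: taken as deviations from the P195A/P195A mean, the median over the 10 genes was -0.40 in that library, 0.08, 0.19 and 0.07 in the other 3, and -0.32, -0.33 and -0.41 in the P195A/- libraries. Mean levels in wild type were below both groups at Atp8b2 (116 CPM) and Ube2q1 (58 CPM). At Chrnb2 the wild-type mean of 86.3 CPM was close to the P195A/- mean of 87.4 CPM. In P195A/+ the means were 187 CPM for Atp8b2, 95.9 CPM for Ube2q1 and 125 CPM for Chrnb2. Without P195A/P195A replicate 2 the median of the list of genes next to Adar was -0.43. The labels do not say which chromosome segments accompany the P195A and the null allele in these animals, so an effect of the segment and one of the allele cannot be told apart.

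**Figure D2:**
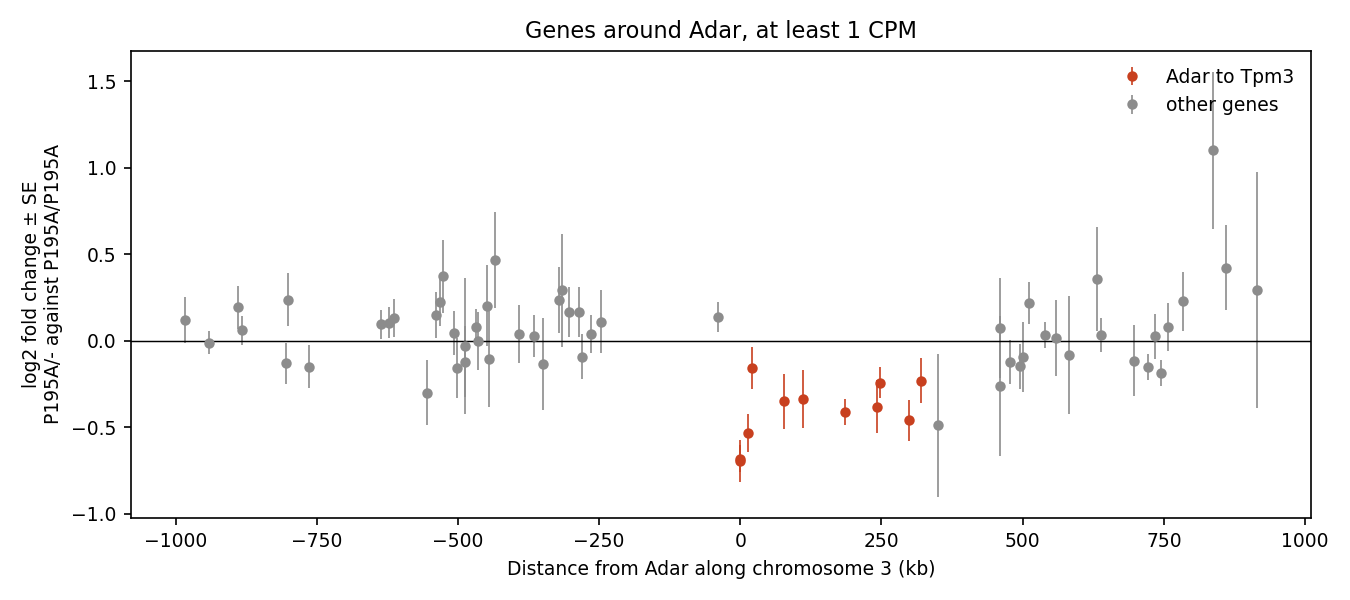
Log2 fold change with its SE (vertical axis) of genes of at least 1 CPM by distance from Adar in kb (horizontal axis), P195A/- against P195A/P195A. The red genes, from Adar to Tpm3, are all below 0, while the genes drawn on the other side of Adar scatter around 0. Fcrls, on that side, lies beyond the range drawn.

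A-to-G editing was tested at 11818 sites that every one of the 7 libraries covered with 10 or more A plus G reads and a pooled level of 1 to 99%. The level at a site is the share of G among A plus G reads, and the median depth was 17 to 31 reads per library. In all, 10 sites passed with edgeR's quasi-likelihood test of edited against unedited reads, and all 10 were lower in P195A/- (0.0846% of the sites), with no site passing in the other direction. The count was 4 without P195A/- replicate 3, 5 without P195A/- replicate 2 and 5 without P195A/P195A replicate 3, and limma on the levels called 0 sites, with 868 at an unadjusted p under 0.05. Below the threshold, 568 sites were lower (4.81%) and 288 higher (2.44%) at an unadjusted p under 0.05 in the edgeR fit.

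Of the passing sites, 7 lay in 3' untranslated regions (UTRs), which held 1971 of the 11818 tested sites. The median over sites of the depth in the lowest library was 26 reads in 3' UTRs and 13 in introns. The part of depth in the count was not tested. In 3' UTRs, inverted repeats often form the double strands that ADAR1 edits. The 7 sites are shown with the passing coding site of Ccni, since their immediate surroundings are what the enzyme meets. Each line gives the GENCODE M21 transcript sequence 5' to 3' on the gene's own strand, 21 bases with the edited adenosine in capitals, and the GRCm38 position of that adenosine.
Gnl3l, chrX:150984618, minus strand, 3' UTR: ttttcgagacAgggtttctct
Bri3bp, chr5:125456605, plus strand, 3' UTR: cggagtttaaAgccagtctgg
Selenop, chr15:3280063, plus strand, 3' UTR: gaacggagaaAgaacaacaaa
Cds2, chr2:132309633, plus strand, 3' UTR: tacagtgcttAatatgtgcca
Cds2, chr2:132309880, plus strand, 3' UTR: gtaagcatttAgcaaggtgcc
Slc39a3, chr10:81030439, minus strand, 3' UTR: cagagggcatAgcagtgagac
Ap2a2, chr7:141632474, plus strand, 3' UTR: ctggagcactAggtgtggtca
Ccni, chr5:93189584, minus strand, coding, arginine to glycine: tcttttggatAggtttttagc

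The Gnl3l site (a nucleolar GTPase gene) was edited at 51.3, 51.5 and 50.4% in P195A/- and at 73.4, 65.8, 74.4 and 70.7% in P195A/P195A, over 353 to 583 reads. All P195A/- libraries lay below all P195A/P195A libraries, and the wild-type mean was 55.2%. The log2 odds ratio was -1.24 ± 0.21 (SE) with an edgeR adjusted p of 1.75e-05. It is the site that passed in every leave-one-out fit besides the first site of Gm26917.

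The Bri3bp site was edited at 64.8, 68 and 54.9% in P195A/- and at 87.6, 81.4, 88.4 and 85.4% in P195A/P195A, over 71 to 144 reads. The groups did not overlap (log2 odds ratio -1.88 ± 0.34 SE, edgeR adjusted p 0.000188), and without P195A/- replicate 3, the lowest library, the edgeR adjusted p was 0.187. Among the 10 passing sites the largest log2 odds ratio, -2.68 ± 0.60 (SE), was at Slc39a3, a zinc transporter gene, at 3.85, 1.79 and 2.53% in P195A/- and 15.4, 21.7, 16 and 13.5% in P195A/P195A. Its depth was only 56 to 94 reads, and its edgeR adjusted p of 0.0117 was 0.061 to 0.249 without P195A/P195A replicate 3 or any 1 of the 3 P195A/- libraries.

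In Cds2, which encodes an enzyme of phospholipid synthesis, both sites were lower. The site at 132309880 was at 85.9, 82 and 81.2% in P195A/- and 90.3, 89.4, 90.9 and 91.5% in P195A/P195A. The site at 132309633 was at 8.39, 4.67 and 3.79% against 12.3, 9.04, 11.8 and 11.9%. The 2 sites lie in 1 UTR and share their transcripts, so they are not independent of each other. Their edgeR adjusted p values, 0.0152 and 0.00934, passed the threshold neither without P195A/- replicate 2 or 3 nor without P195A/P195A replicate 1 or 3, and for the site at 132309880 also not without P195A/P195A replicate 4 (0.0643 to 0.407 over these fits).

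Ap2a2, a subunit of the clathrin adaptor AP-2, was edited at 8.09, 6.1 and 6.04% in P195A/- and 20.1, 15.6, 18.5 and 14.1% in P195A/P195A, and the wild-type mean was 7.15%. Its edgeR adjusted p was 0.0152 and lay between 0.074 and 0.249 without P195A/P195A replicate 1 or 3 or any 1 of the P195A/- libraries. Selenop, the gene of a selenium transport protein, was at 1.42, 1.17 and 0.39% against 2.88, 1.47, 3.5 and 2.85%, close to the lower limit of 1% and with P195A/P195A replicate 2 next to the P195A/- libraries. Its edgeR adjusted p of 0.00196 was 0.202 without P195A/P195A replicate 3 and 0.398 without P195A/- replicate 3.

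The coding site of Ccni, the gene of cyclin I, was at 0.71, 1.95 and 2.05% in P195A/- and 4.74, 3.37, 4.02 and 4.24% in P195A/P195A, over 561 to 1069 reads. It passed with an edgeR adjusted p of 0.000763, which was 0.341 without P195A/- replicate 1, the lowest library. The remaining 2 sites lie in the noncoding transcript Gm26917 on chromosome 17, at 39843752 and 39845506, where the depth stood at or within 3 reads of the limit of 3000 set in the files in every library. They were at 1.07 to 1.23% against 2.07 to 4.47%, and at 3.1 to 4.27% against 5.47 to 6.47%. Whether the G reads at these 2 capped sites come from editing was not tested. The second had an edgeR adjusted p of 0.000277, which was 0.0559 without P195A/- replicate 2. The genes of the other 8 sites did not pass in expression, with log2 fold changes from -0.40 (Ccni) to -0.03 (Slc39a3). Wild-type mean levels were 2.47% at Ccni, 1.19% at Selenop, 7.27% at Slc39a3 and 78.15% at Bri3bp. By position they were 5.02 and 83.4% at the sites of Cds2 and 0.36 and 3.51% at those of Gm26917.

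**Figure D3:**
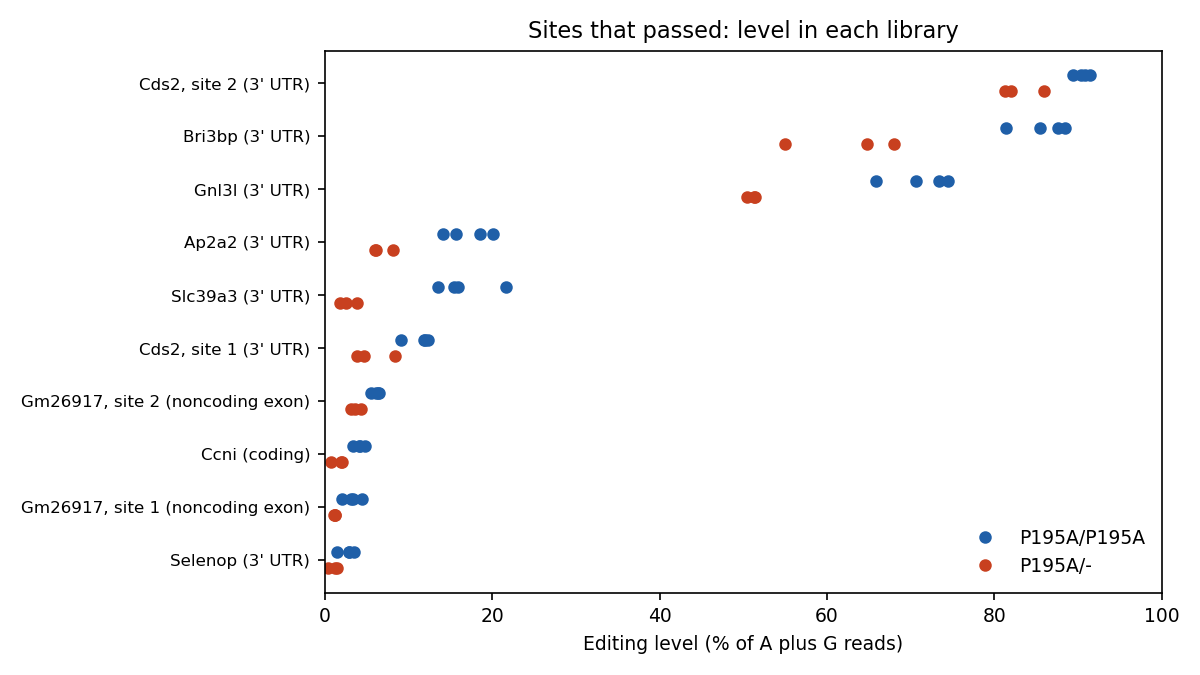
Editing level in each library (horizontal axis, % G of A plus G reads) at the 10 sites that passed, P195A/P195A in blue and P195A/- in red, sites of 1 gene numbered by position. At each site the P195A/- libraries lie below the P195A/P195A libraries, from Gnl3l (50.4 to 51.5% against 65.8 to 74.4%) to sites edited under 5%.

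Averaged over all tested sites, editing was 16.1% ± 0.51 (SD, n = 3) in P195A/- and 16.7% ± 0.22 (SD, n = 4) in P195A/P195A. The libraries overlapped, with 16, 15.6 and 16.6% against 17, 16.5, 16.8 and 16.6%. The difference of -0.63 percentage points gave an exact two-sided permutation p of 0.171, where 0.0571 is the smallest p this design allows. The difference varied with the cut-off on reads and with weighting. It was -1.29 points over 3407 sites with at least 20 reads (exact permutation p of 0.0571). With at least 5 reads it was -0.22 points (exact permutation p of 0.514), and with sites weighted by reads -0.9996 points (exact permutation p of 0.0571). The mix of classes varied too: 3' UTRs held 1227 of the 3407 sites, and 2566 of the 29952 with at least 5 reads. The parts of depth and of class mix were not tested. At the 10428 of these sites that the deposited comparison with wild type also covers, wild-type libraries averaged 14.9 to 16.2%.

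By position in the gene, the groups did not overlap at 3' UTRs and at exons of noncoding transcripts and overlapped at introns, none passing after adjustment. Over 1971 sites in 3' UTRs, the mean level was 13.5, 13.9 and 13.7% in P195A/- and 15.6, 14.4, 15.6 and 15.4% in P195A/P195A. Each P195A/- library was below each P195A/P195A library, although P195A/P195A replicate 2 lay below the others of its group. The difference was -1.54 percentage points (exact permutation p of 0.0571, the smallest possible, and 0.171 adjusted over 6 classes). At 800 sites in noncoding exons the means were 15.9, 15.9 and 16.4% against 17.6, 16.9, 18.2 and 16.7%, a difference of -1.30 points with the same exact p. Leaving out Gm26917 left this difference at -1.29 points. At sites with at least 5 reads the groups overlapped (-0.92 points, exact permutation p of 0.114).

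Introns held 8177 of the sites, and there the mean was 16.2, 15.6 and 16.9% against 16.8, 16.4, 16.4 and 16.4%. The difference of -0.26 points had an exact permutation p of 0.457, and it was 0.11 points without P195A/- replicate 2. At the 1531 intron sites with at least 20 reads it was -0.89 points, with groups that did not overlap (exact permutation p of 0.0571). At 129 coding sites the difference was -1.15 points (exact permutation p of 0.171), and 0.0592 points when sites were weighted by their reads. Outside genes it was -1.53 points over 723 sites (exact permutation p of 0.114), and at 18 sites in 5' UTRs it was -0.88 points (exact permutation p of 0.4). Whether the difference in 3' UTRs is larger than that in introns was not tested.

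Counted by site, 142 of the 1971 sites in 3' UTRs were lower without overlap of the groups (7.2%) and 56 were higher (2.84%), against 4.56 and 2.81% over all tested sites. Introns had 294 lower (3.6%) and 234 higher (2.86%). In 3' UTRs the difference in mean level, in percentage points and not relative to the level, was larger at more strongly edited sites. Levels were 3.9 against 4.48% at 1106 sites of 1 to 10%, 16.8 against 19% at 564 sites of 10 to 30%, 40.3 against 43.3% at 192 sites of 30 to 60% and 69.1 against 75.9% at 80 sites of 60 to 99%. In each of the lower 2 bins and the highest bin the 3 P195A/- libraries lay below all 4 P195A/P195A libraries, while from 30 to 60% the highest P195A/- library (41.5%) was above the lowest P195A/P195A library (41.3%). Noncoding exons did not share this order: at 27 sites of 60 to 99% the mean was higher in P195A/- (75.9 against 74.2%), with overlapping groups.

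**Figure D4:**
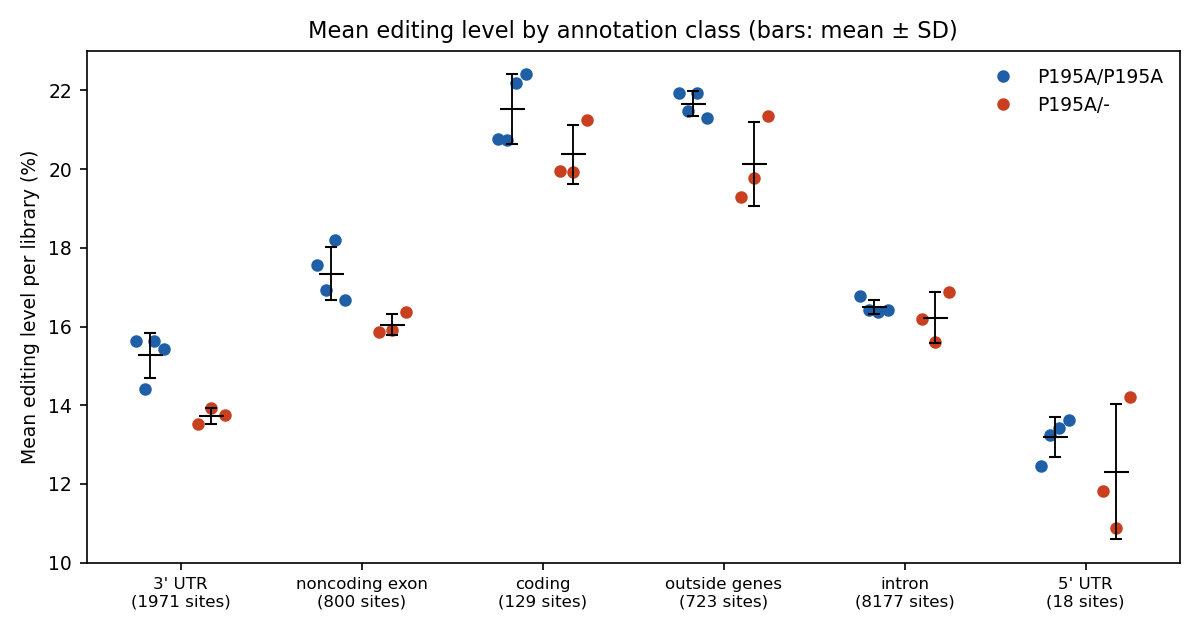
Mean editing level per library in % (vertical axis, starting at 10%) by annotation class, with points for libraries and black bars for the mean and SD of 4 P195A/P195A (blue) and 3 P195A/- (red) libraries. The groups are apart at 3' UTRs and noncoding exons and overlap elsewhere.

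Of 36 genes with at least 15 tested 3' UTR sites, 31 had a lower mean level in P195A/- and 5 a higher one, with a median difference of -1.09 points. The largest difference was in C330018D20Rik, at 20.3, 20.2 and 22.8% over 41 sites in P195A/- and 27.1, 25.7, 27.6 and 26.4% in P195A/P195A. Ovca2 followed, at 9.24, 8.91 and 7.48% over 25 sites against 11.1, 12.2, 13.4 and 13%. Both were without overlap, as were 3 others of the 36, all of them lower. Over all tested sites of a gene, limma called none of 575 genes with at least 5 sites (smallest adjusted p 0.317), 60 having an unadjusted p under 0.05 (10.4%), of which 44 were lower. The groups did not overlap in 49 lower (8.52%) and 17 higher (2.96%) of the 575.

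The 5 genes with the smallest p by editing went both ways. Srsf4, a splicing factor gene, was at 23.1, 20.8 and 16.8% over 5 sites in P195A/- and 8.31, 11.5, 12 and 6.46% in P195A/P195A. Kcnh7, a potassium channel gene, was at 28.6, 27.3 and 29.5% over 10 sites against 19.5, 20.3, 19.1 and 22.2%. Cntn1, a neuronal cell adhesion gene, was at 25.9, 25.3 and 28.9% over 12 sites against 21.9, 17.1, 15.9 and 16.8%. These 3 were higher in every P195A/- library, and Gm26782 (26.9% against 39.2%) and the microtubule-associated kinase Dclk1 (16.5% against 24%) were lower, all with limma adjusted p values of 0.317 to 0.357.

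Coding sites of genes with known recoding showed little difference. In all, 60 coding sites in 23 of 30 such genes were tested, some of them synonymous, and none passed with edgeR. The median difference was -0.52 points, and 5 had an unadjusted p under 0.05 (4 lower, 1 higher), against 4.81 and 2.44% of all sites. The lower ones, in Grik2, Son and Ube2o, were synonymous except that of Ube2o. Taking the site with most reads in each gene, 15 of 23 were lower and 8 higher. That site is synonymous in Cog3, Gria2, Gria3 and Grik2, and in Cyfip2 it is not the lysine-to-glutamate site, so these counts do not describe recoding alone. Of the 60, 6 did not overlap between groups (4 lower, 2 higher, against 4.56 and 2.81% of all sites), and these were picked out after their values were seen. A pair of examples is shown in the same form as above, since their flanks belong to the double-stranded stems known to be edited in these messages.
Blcap, chr2:157558140, minus strand, glutamine to arginine: tattgcctccAgtggctgctg
Tmem63b, chr17:45662949, glutamine to arginine: tacgagttccAgtttggcgca

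Blcap was edited at 21.4, 13.5 and 33.3% in P195A/- and 38.7, 34.5, 34.8 and 39.3% in P195A/P195A, at a depth of at least 28 reads, with an unadjusted edgeR p of 0.0753. Tmem63b, the gene of an ion channel, was at 66, 65 and 62.8% against 68, 68.5, 69 and 69.6%. The arginine-to-glycine site of the glutamate receptor subunit Gria2 was at 69.1, 69 and 67.8% against 71.9, 75.4, 70.2 and 70.4%. A synonymous site of the splicing cofactor Son was also lower (2.43 to 3.45% against 4.94 to 6.4%). Higher without overlap were an arginine-to-glycine site of Son (43.9 to 48.9% against 36 to 43.6%) and the lysine-to-glutamate site of the actin regulator Cyfip2 (78.1 to 80.6% against 76.5 to 77.7%). The 5 recoding positions of the serotonin receptor Htr2c that were tested overlapped between groups. The glutamine-to-arginine site of Gria2, which sets the calcium permeability of AMPA receptors, was edited at 99.2 to 100% in P195A/- and 97.2 to 99.6% in P195A/P195A over 212 to 353 reads, above the tested range.

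Genes of the interferon response were higher in P195A/- than in P195A/P195A, though none passed the edgeR threshold after adjustment over all genes. Of 36 tested interferon-stimulated effectors, 32 had a positive log2 fold change, with a median of 0.47 against 0.004 over all genes. Their summed level was 213 to 260.6 CPM in P195A/- and 176.6 to 190.3 CPM in P195A/P195A. In wild type it was 194.2 to 215 CPM, which overlaps P195A/-. In this list 13 had an unadjusted p under 0.05 and a higher level, against 3.19% of all genes, and none a lower one. Of the 36, 11 were higher without overlap, against 2.64% of all genes, and DESeq2 called Ifit1, Ifit3 and Ifi44 (0.0903% of genes called higher). The list was written with earlier results of these data known, and its members share regulators, so they are not independent.

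Ifit1, which binds viral RNA lacking a methylated cap, was at 4.61, 6.71 and 5.5 CPM in P195A/- and 1.5, 2.34, 2.7 and 1.83 CPM in P195A/P195A. Its log2 fold change was 1.42 ± 0.28 (SE) with an edgeR adjusted p of 0.106, and wild type averaged 2.54 CPM. Ifit3 was at 6.6, 8.12 and 6.05 against 2.52, 2.26, 4.47 and 2.01 CPM, and Ifi44 at 2.8, 5.86 and 2.11 against 1.44, 1.02, 0.54 and 0.767 CPM. All P195A/- libraries exceeded all P195A/P195A libraries in these 3 genes, and P195A/- replicate 2 was the highest in each. The deconjugating enzyme gene of ISG15, Usp18, was at 3.17, 4.52 and 2.17 against 1.32, 1.46, 1.33 and 1.42 CPM. Mx1 (log2 fold change 0.01) and Ifit2 (0.07) were near 0, and Isg15 and Zbp1, whose product senses Z-form nucleic acid, did not pass the filter on low counts.

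The interferon-inducible GTPases had all 15 tested members above 0, with a median of 0.65 and 9 with an unadjusted p under 0.05 (3.19% of all genes). Their summed level was 68.7 to 90.6 CPM in P195A/-, 41.1 to 56.8 CPM in P195A/P195A and 52.8 to 61.6 CPM in wild type. Gbp6 was at 5.6, 6.47 and 4.33 CPM in P195A/- and 2.28, 2.85, 2.65 and 2.36 CPM in P195A/P195A, without overlap (log2 fold change 1.11 ± 0.24 SE, edgeR adjusted p 0.202), and the wild-type mean was 4.11 CPM. Without P195A/- replicate 2, the median of the effectors was 0.31 with 29 of 36 above 0, and that of the GTPases 0.53 with 13 of 15 above 0. The median of the effectors relative to the P195A/P195A mean was 0.31, 0.67 and 0.32 in the 3 P195A/- libraries and -0.05 to 0.11 in the P195A/P195A libraries. Rnf213, a large interferon-inducible ubiquitin ligase, was at 44.5, 57.9 and 46.9 CPM against 36.9, 32.5, 35.6 and 34.3 CPM (log2 fold change 0.51 ± 0.10 SE, edgeR adjusted p 0.121).

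For antigen presentation, 15 of 18 MHC class I and immunoproteasome genes were above 0, with a median of 0.23. That median was 0.42 without P195A/P195A replicate 3 and 0.47 among animals of 42 days. The summed level of the list was 176.5 to 192.8 CPM in P195A/- and 149 to 171.5 CPM in P195A/P195A. In wild type it was 156.5 to 194.4 CPM, which overlaps both. B2m, the invariant chain of MHC class I, was at 14, 13.4 and 26 CPM against 11.4, 6.71, 11.3 and 13.3 CPM, highest in P195A/- replicate 3. Of 16 interferon receptors, STAT and IRF factors, 14 were above 0 with a median of 0.16. Irf7, the factor that amplifies type I interferon, was at 1.99, 2.93 and 3 CPM against 0.778, 0.73, 1.23 and 1.95 CPM (log2 fold change 1.16, edgeR adjusted p 0.57). Among 14 RNA sensors and OAS genes 10 were above 0, the median was 0.19 (0.10 without P195A/- replicate 2), and none had an unadjusted p under 0.05. Ifih1, which encodes MDA5, was at 6.04, 11.8 and 6.99 CPM against 6.47, 4.01, 6.14 and 7.02 CPM, which overlap.

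Of 32 ATF4 targets and stress response genes 12 were above 0, with a median of -0.05, and 1 higher and 2 lower members had an unadjusted p under 0.05 (3.19 and 3.63% of all genes). The direction turned among animals of 42 days, with 20 of 32 above 0 and a median of 0.06, and 6 of 32 were above 0 without P195A/P195A replicate 2. Ddit3, a stress transcription factor gene, was at 5.54, 5.92 and 9.49 CPM against 4.73, 3.87, 5.4 and 5.31 CPM, and Asns, the asparagine synthetase gene and an ATF4 target, at 60.4 to 85.5 against 78.3 to 118 CPM. The kinase PKR gene Eif2ak2 was at 23.4, 20.3 and 16 CPM against 20.2, 20.1, 8.64 and 12.4 CPM. NF-kB targets and chemokines had 8 of 18 members tested, with a median of -0.03 (-0.16 without P195A/P195A replicate 2 and 0.11 without replicate 3), and the 4 tested genes of the ZBP1 and necroptosis list had a median of -0.03 (0.14 among animals of 42 days).

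**Figure D5:**
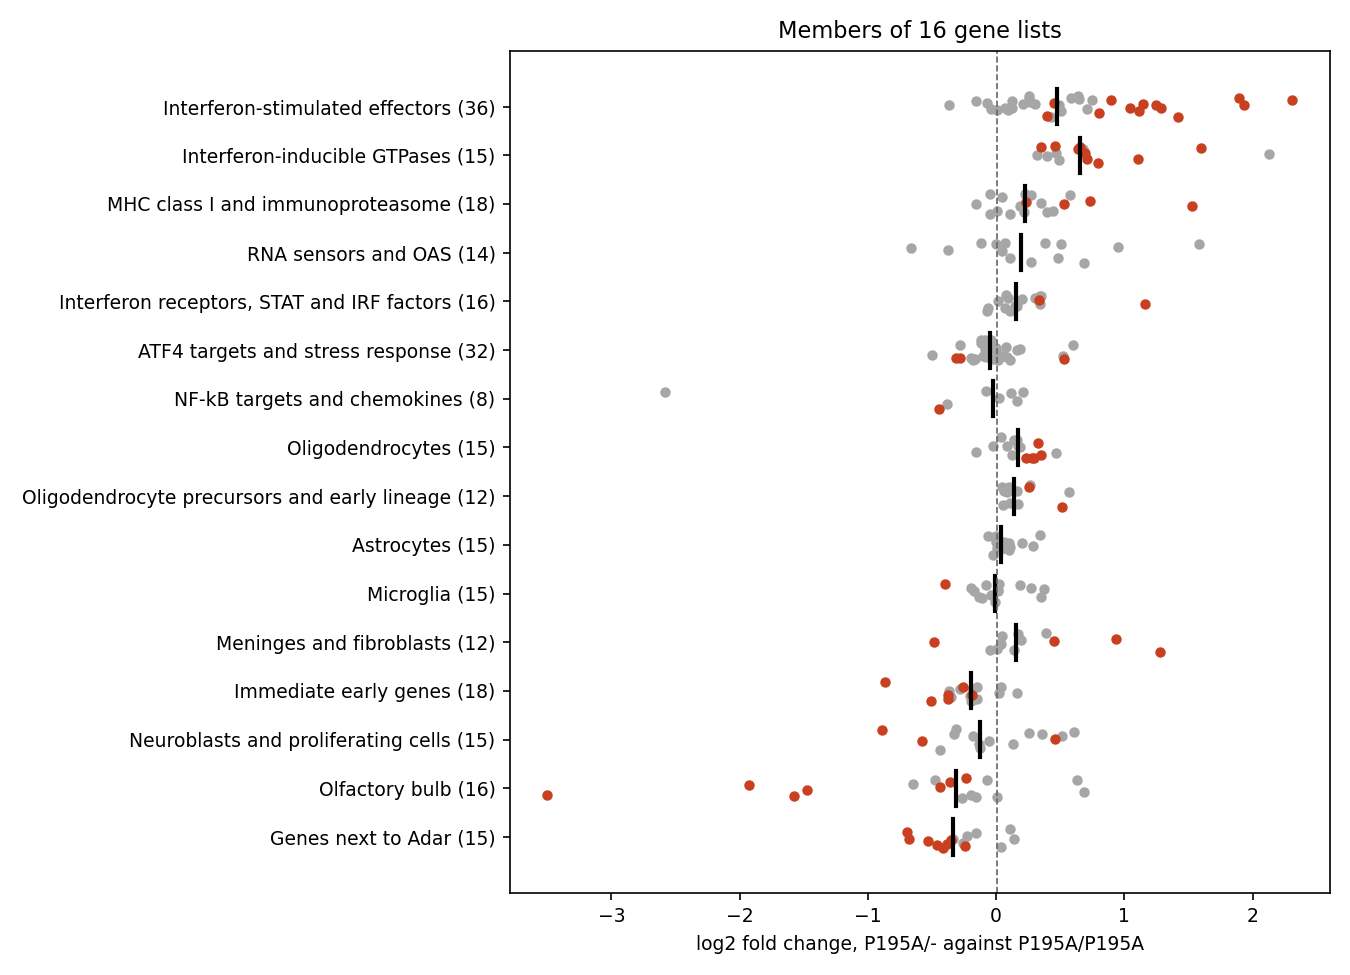
Log2 fold change of each tested member (points) of 16 gene lists, P195A/- against P195A/P195A, with the number tested in brackets, red for an unadjusted edgeR p under 0.05, a black bar for the list median and a dashed line for the median of all genes. The interferon-stimulated effectors (median 0.47) and GTPases (0.65) lie to the right of the line, and the genes next to Adar (-0.34) and olfactory bulb genes (-0.31) to its left.

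The 4 genes that rose are annotated as pseudogenes and were at or near 0 in P195A/P195A. Each has a near-identical copy elsewhere in the transcriptome, so the assignment of reads between copies is uncertain. Rps3a2 (chr14:88123017-88123808) had 264, 322 and 549 counts in P195A/- and 0 in all 4 P195A/P195A libraries. With the group total of 0 set to 3 counts, it was at least 507-fold higher in P195A/-. Rps3a3 (chr13:108670603-108671397) had 467, 506 and 711 counts against 1, 7, 2 and 3, a ratio of 174 (95% exact interval 101 to 327, counting error only). These transcripts are 99.5 and 98.9% identical to Rps3a1, which encodes a protein of the small ribosomal subunit. Rps3a1 was at 42.8, 55.2 and 73.5 CPM in P195A/- and 80.8, 66.4, 120 and 99.3 CPM in P195A/P195A. The sum of the 3 was 88.3, 106 and 143 CPM against 80.9, 66.9, 120 and 99.5 CPM, which overlap. Both Rps3a2 and Rps3a3 averaged at most 0.326 CPM in wild type and in P195A/+.

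Gm3608 (chr1:105455971-105458829) had 421, 463 and 460 counts in P195A/- and 0, 5, 12 and 5 in P195A/P195A, a ratio of 81.9 (95% exact interval 53.9 to 131). Its transcript is 99.5% identical to Capza1 (chr3:104822779-104864505), the gene of an actin capping protein subunit, which fell. Capza1 was at 49.2, 53.4 and 50.5 CPM against 79.9, 71.9, 72.2 and 80.8 CPM, a log2 fold change of -0.58 ± 0.09 (SE) with an edgeR adjusted p of 0.0204. The sum of both was 75.4, 81.7 and 76 CPM in P195A/- and 79.9, 72.2, 72.8 and 81.1 CPM in P195A/P195A, so the summed levels overlapped. Wild type was close to P195A/- in level, with means of 29.7 CPM for Gm3608 and 55.7 CPM for Capza1, while P195A/+ was at 0.321 and 78.4 CPM. The edgeR adjusted p of Capza1 was 0.0516 to 0.104 without P195A/P195A replicate 1 or 4 or any 1 of the P195A/- libraries.

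Hist1h2al (chr13:51202727-51203065), annotated as a processed pseudogene, had 47, 44 and 65 counts in P195A/- and 0 in all P195A/P195A libraries, at least 69.7-fold higher. It is 99.4% identical over 339 bases to Hist2h2aa1, which had a log2 fold change of 0.44 (edgeR adjusted p 0.987). Rps3a2, Rps3a3, Gm3608 and Hist1h2al passed in all 17 alternative fits.

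Olfactory genes were lower in P195A/- than in P195A/P195A. Cdhr1, a cadherin gene marking mitral and tufted cells of the olfactory bulb, was at 10.1, 3.42 and 4.22 CPM in P195A/- and 19.6, 21.5, 25.2 and 23.1 CPM in P195A/P195A. Its log2 fold change of -1.92 ± 0.29 (SE) passed with an edgeR adjusted p of 0.0253. That p was 0.0516 to 0.177 without P195A/P195A replicate 1, 3 or 4 or without P195A/- replicate 2 or 3. The groups did not overlap, and mean levels were 14 CPM in wild type and 5.1 CPM in P195A/+. S100a5 (chr3:90608523-90611780), a calcium-binding protein gene of olfactory sensory neurons, lies within 3 Mb of Adar, beyond Tpm3. Its level is under the 1 CPM set for naming genes, and it was picked out because it passed. It had 0 counts in all P195A/- libraries and 10, 12, 23 and 20 counts in P195A/P195A, at least 16.2-fold lower, with an edgeR adjusted p of 0.0266 that was 0.0516 to 0.152 without any 1 library other than P195A/P195A replicate 2.

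Of 16 olfactory bulb markers 13 were below 0, with a median of -0.31, and 7 had an unadjusted p under 0.05 (3.63% of all genes) with a lower level. Without overlap, 6 were lower, against 4% of all genes. Sp8, a transcription factor gene of bulb interneurons, was at 3.92, 3.66 and 2.78 CPM against 10.1, 8.76, 8.89 and 10.7 CPM (log2 fold change -1.48 ± 0.26 SE, edgeR adjusted p 0.062). Synpr, encoding synaptoporin, was at 99.2, 97.8 and 90 CPM against 122, 139, 143 and 116 CPM, and Doc2g at 2.18, 1.53 and 0.777 against 3.53, 3.65, 5.7 and 4.84 CPM. Tbx21, a mitral cell transcription factor gene, was at 0.187, 0 and 0 CPM against 1.02, 0.657, 0.835 and 0.472 CPM. Omp, olfactory marker protein, had 10, 5 and 9 counts in P195A/- and 34, 61, 36 and 39 in P195A/P195A, 5.28-fold more (95% exact interval 3.43 to 8.47), with an edgeR adjusted p of 0.0511. In P195A/+, mean levels were 3.53 CPM for Sp8 and 0.63 CPM for Omp, close to the P195A/- means of 3.45 and 0.48 CPM. In wild type they were 4.93 and 1.70 CPM, below the P195A/P195A means of 9.61 and 2.64 CPM. Reln and Th, also bulb markers but expressed in other regions, had log2 fold changes of 0 and -0.19. In whole tissue, fewer cells of a type and less RNA per cell cannot be told apart.

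Markers of another region varied between libraries too. The summed level of 12 cerebellar markers was 1639, 778 and 2063 CPM in P195A/- and 1440 to 1699 CPM in P195A/P195A, so P195A/- replicate 2 held the lowest and replicate 3 the highest sum. The summed olfactory bulb markers were 1139, 958 and 1156 CPM against 1122 to 1312 CPM. The part of tissue composition in the lower olfactory genes was not tested. Without P195A/- replicate 2 the median of the olfactory bulb list was -0.24, with 12 of 16 below 0.

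Genes marking young neurons lay between. Dcx, a microtubule protein gene of migrating neuroblasts, was at 69.6, 67.9 and 57.2 CPM in P195A/- and 106, 103, 78.1 and 100 CPM in P195A/P195A, without overlap (log2 fold change -0.57 ± 0.12 SE, edgeR adjusted p 0.121). The transcription factor gene Dlx1 was at 4.67, 5.55 and 6.55 against 10.3, 7.66, 12.2 and 11.3 CPM, with means of 7.2 CPM in wild type and 5.03 CPM in P195A/+. The list as a whole had 6 of 15 members above 0 and a median of -0.12 (0.15 without P195A/- replicate 1), with Nes higher (8.96 to 10.2 against 5.76 to 7.61 CPM).

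None of the myelin genes passed. Of 15 oligodendrocyte markers 13 were above 0 (50.8% of all genes were), with a median of 0.17 and 5 higher at an unadjusted p under 0.05 (3.19% of all genes). Mbp, myelin basic protein, had a log2 fold change of 0.33 ± 0.09 (SE), and Mobp was at 718, 874 and 922 CPM against 670, 606, 678 and 675 CPM. Cldn11, the tight junction claudin of myelin, was at 190, 207 and 199 CPM against 163, 162, 176 and 155 CPM. All 12 precursor and early lineage markers were above 0 (median 0.14, and 0.06 with 10 of 12 above 0 without P195A/P195A replicate 2), with Sox10 at 16.5, 16.2 and 21.7 against 12.4, 10.4, 13.8 and 14.2 CPM. The age of the groups differed in part, and among animals of 42 days alone 11 of 15 oligodendrocyte markers were above 0 with a median of 0.17.

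Immediate early genes, which neurons switch on with activity, had 15 of 18 members below 0, a median of -0.20 and 6 lower at an unadjusted p under 0.05 (3.63% of all genes), and none passed. Fosb was at 7.34, 9.58 and 10.5 CPM against 14.3, 11.7, 19.7 and 20.9 CPM, and Fosl2 at 76.3, 82.1 and 79.4 against 93.8, 92.5, 119 and 105 CPM. Mean levels in P195A/+ were 10.6 CPM for Fosb and 84.7 CPM for Fosl2, and in wild type 18.4 and 110 CPM. Arc (log2 fold change 0.02) and Npas4 (0.04) were near 0. The P195A/P195A animals of 48 days, replicates 3 and 4, had the highest Fosb, and among animals of 42 days the median was -0.07 with 6 of 18 above 0. Without P195A/P195A replicate 2 it was -0.33.

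Medians of other cell type lists depended on P195A/P195A replicates 2 and 3. The microglial median was -0.01, and it was -0.15 without replicate 2, 0.18 without replicate 3 and 0.22 among animals of 42 days, where 14 of 15 markers were above 0. For astrocyte markers the median was 0.04 (-0.01 without replicate 2), for endothelial and pericyte markers 0.09 (0.00 without replicate 2 and 0.16 without replicate 3) and for excitatory neuron markers -0.03 (-0.16 without replicate 2). Meningeal and fibroblast markers had 10 of 12 above 0 and a median of 0.16, which was 0.07 without P195A/- replicate 1, 0.27 without P195A/- replicate 3 and 0.10 without P195A/P195A replicate 2. The list was led by Col3a1 at 25, 32.7 and 12.1 CPM against 12.3, 8.32, 9.43 and 8.2 CPM. All 6 blood cell markers were above 0 with a median of 0.42, but the summed level was 249, 908 and 272 CPM in P195A/- against 234 to 540 CPM, so the value rests on P195A/- replicate 2, and without it the median was -0.33. That library was also the highest in Ifit1, Ifit3 and Ifi44, and the part of blood in those levels was not tested.

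Among the genes with the smallest p in each direction, others belong to none of these lists. Pxn, the gene of the focal adhesion protein paxillin, was at 34.7, 31.6 and 35.3 CPM in P195A/- and 23.5, 20.1, 18.1 and 23.2 CPM in P195A/P195A (log2 fold change 0.67 ± 0.13 SE, edgeR adjusted p 0.0923). Wars2, a mitochondrial tryptophanyl-tRNA synthetase gene, was at 17.4, 12.5 and 14.2 against 8.02, 8.1, 9.63 and 8.85 CPM. Gng4, a G protein gamma subunit gene, was at 36.8, 41.2 and 38 against 52.6, 52.5, 67.1 and 59.2 CPM (log2 fold change -0.58 ± 0.10 SE, edgeR adjusted p 0.053). Shisa3 was at 1.56, 1.22 and 0.722 against 3.11, 4.09, 4.86 and 5.01 CPM, and Gm41396 at 0.124 to 0.305 against 1.24 to 3.72 CPM. Mean levels in P195A/+ were 25.3 CPM for Pxn, 12.4 for Wars2, 39.6 for Gng4, 1.21 for Shisa3 and 0.099 for Gm41396. None of these 5 passed with edgeR, all were without overlap, and DESeq2 called all 5.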

How the data were processed

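Total RNA of 13 mouse brains was sequenced, 1 library per animal. Per gene, estimated counts were deposited in 1 table for all libraries, made with Salmon per the submitters' processing notes, which also name fastp 0.19.5 and edgeR. For editing, the authors deposited JACUSA2 (2.0.0-RC5) tables that list A, C, G and T read counts at each site on mm10, with a depth limit of 3000 reads and a minimum coverage of 3 per the file headers. The notes give no roles or settings.

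Estimated counts (99.5% of the values above 0 not whole) were rounded, filtered with filterByExpr, TMM-scaled and fitted for all 13 libraries together in edgeR 4.0.16 (robust quasi-likelihood, biological coefficient of variation 19.1%), with Benjamini-Hochberg adjustment over 19962 genes. Annotation was GENCODE M21, which matched 51482 of 54307 identifiers. CPM are TMM-scaled. Editing sites were fitted in edgeR as edited and unedited counts per library, which shares the spread over sites, so that at deep sites p-values may understate the spread between animals. Class means were compared by exact permutation over 35 assignments, with the smaller tail doubled. Editing per gene was tested with limma 3.58.1 on arcsine square-root means. DESeq2 1.42.0 and limma-voom were alternatives. Identity of copies was found with BLAST 2.17.0. Sequences are GENCODE M21 transcripts. The scripts were tested on simulated data. Counting intervals cover counting error only.

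Genes named are those that passed, the 10 of at least 1 CPM with the smallest p in each direction, and members of the 31 lists. Members and lists were chosen with earlier results of these data known. Floors are 3 counts over the group.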

Additional observations from a re-analysis of the deposited data

Results flagged for a closer look

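Of 64 values tested for a library apart from the rest of its group of 4 P195A/P195A libraries, 4 were picked out by the gap to the nearest library relative to the range. Chance picks out about 1 group in 20. The mean level of 3' UTR sites was 14.42% in P195A/P195A replicate 2 and 15.43 to 15.62% in the other 3. The Cds2 site at 132309633 was at 9.04% in the same library and 11.8 to 12.33% in the others. The mean level of intron sites was 16.77% in P195A/P195A replicate 1 and 16.37 to 16.43% in the others. A coding site of Nova1, a neuronal splicing factor gene, at 46700469 was at 6.67% in P195A/P195A replicate 4 and 0 in the others. Its depth was only 30 reads in that library and 19 to 40 reads in the others. In each case the cause was not tested.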

How the results depend on the processing

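Against 8 genes passing, 5 passed with only the 7 libraries, 5 with only animals of 42 days, 52 with DESeq2 and 29 with no filter on low counts. Leaving out 1 library gave 5 to 15. List members passing numbered 2, 1 in animals of 42 days, and 1 to 6 without 1 library. Against 10 sites, 25 passed with at least 20 reads, 19 with a pooled level of 5 to 95%, 3 in animals of 42 days, and 0 with limma on levels, where 868 had an unadjusted p under 0.05. Without 1 library the count was 4 to 14, and without Gm26917, an alternative added after seeing the data, 8. Adar fell in all 17 alternatives. Adarb1, near 0, had a log2 fold change of -0.032 in animals of 42 days, -0.090 without P195A/P195A replicates 2 and 3, and -0.037 to 0.038 without 1 library. Differences in editing turned above 0 for coding sites weighted by reads (0.0592 points), 5' UTRs in animals of 42 days (0.0703) and introns with at least 5 reads (0.0482). In introns they ran from -0.56 to 0.11 without 1 library. In 3' UTRs they ran from -1.83 to -1.41 without 1 library. No gene passed by editing without any 1 library. The replicate block gave 7 genes and 9 sites. Same-numbered animals correlated at 0.032, -0.012 and 0.124 in expression and 0.008, -0.004 and -0.015 in editing, so the numbers were not taken to pair them. The cause of these changes was not tested. Depth of 17 to 31 reads per site limits single-site differences, and 3 against 4 animals limits exact tests to 0.0571.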
